A study of Sus scrofa with 15 samples.

Results

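Histone chaperones are proteins that carry histones, keep them from binding at random and hand them to DNA. Nucleoplasmins (NPM1, NPM2 and NPM3) form rings that hold histones and work in the nucleolus and on chromatin. HIRA places the variant histone H3.3 outside DNA replication, whereas chromatin assembly factor 1, whose large and middle subunits are CHAF1A and CHAF1B, places H3 and H4 behind replication forks. ASF1A and ASF1B pass H3 and H4 to both of these, NASP keeps a soluble reserve of H3 and H4, and SLBP binds the stem loop that ends the mRNAs of replication-dependent histones, which lack a poly(A) tail. In oocytes this machinery is known for storing the histones that an embryo will need and for unpacking sperm chromatin after fertilisation. The 10 genes named here were chosen by symbol. Of them, 9 had a row among the 22516 genes of the pig gene table, and NPM2 was not analysed here because the gene name table used paired no Ensembl identifier with it.

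Pig oocytes were compared at the germinal vesicle (GV) stage, freed from fresh follicles without culture, and after in vitro maturation for 44 h as given in the labels. Matured oocytes with a polar body made up the MII group and matured oocytes without a polar body the ‘damaged’ group, a class defined only by that absence. Each group had 5 libraries of poly(A) RNA, made from pools of 15 oocytes, so the values are those of pools and no library stands for a single oocyte. The study's methods describe 5 independent collections that each gave 15 oocytes of every group, so the groups may be matched by collection. No label ties a library to a collection, a sow or a day. The main tests left the libraries unpaired, and their p-values measure the spread between these pools. A fit with the replicate number as a block is given in the part on processing. MII and ‘damaged’ libraries were also joined as MIX and compared with GV, as in the study.

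Library totals lay between 6.40 and 23.6 M estimated counts. The shallowest library, GV replicate 3, was left out of the tests, which leaves 4 GV and 10 MIX libraries. The names in the gene table and in the transcript files contradicted each other for 7 of 15 columns, 6 of which carried the name of another stage. Each column was therefore given to the library whose transcript file had the same total, and 4326 genes then had the profile of a single transcript's TPM over the 15 libraries. This match is up to 1 factor per gene and 1 per library, the latter estimated from such genes, with a distance under 1e-06 on the natural log scale. The groups below follow the labels of the transcript files, and which of the conflicting labels are right was not tested. By these labels, the genes with a count numbered 16363 to 17147 in GV and 15356 to 16044 in matured libraries, without overlap. The MII and ‘damaged’ libraries overlapped in this number, at 15356 to 16044 and 15590 to 15841, so it does not tell those labels apart. Markers of the oocyte (9 with an identifier, GDF9 and ZP2 among them) took 1.65 to 1.87% of the counts in GV, 0.450 to 0.662% in MII and 0.502 to 0.671% in ‘damaged’ libraries. Of 12 markers of cumulus and granulosa cells, 2 passed the filter on low counts, KITLG at 120 to 217 CPM (counts scaled to the same library total) and STAR at 0.309 to 2.07. AMHR2 was at 0 in every MII and ‘damaged’ library used and AMH in every MII library. The summed level of these 12 markers was 123 to 175 CPM in GV, 122 to 218 in MII and 138 to 202 in ‘damaged’ libraries on library sizes. With the TMM factors used below, KITLG, which made up most of this sum, was called higher in MIX libraries, at 69.2 to 111 CPM in GV and 145 to 271 CPM in MIX (log2 fold change 1.04 ± 0.17, SE, FDR = 2.17e-05 in limma-voom), against 0.15 (FDR = 0.384) on library sizes. The part of these markers in the results was not tested.

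Between GV and MIX oocytes, 6 of the 9 genes passed the test at a false discovery rate (FDR) under 0.01 in limma-voom, fitted across 13230 genes. NPM1, ASF1B, NPM3 and NASP rose and ASF1A and HIRA fell, while CHAF1A, CHAF1B and SLBP did not pass. The share of genes called over the whole table was 30.0% higher and 37.0% lower, and with 9 genes the counts of 4 higher and 2 lower stand near these shares. NPM1 and ASF1B also passed the threshold for a differentially expressed gene (DEG), an absolute log2 fold change over 2 with an FDR under 0.01, which 4.27% of all genes did upwards and 16.8% downwards. Both were also the 2 of the 9 genes whose GV and MIX libraries did not overlap, a pattern that 53.6% of all genes showed. Over the 9 genes the median was 0.04 on the log2 scale, against -0.16 over all genes tested.

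The direction of several of these changes depended on how the libraries were scaled. The values above use TMM factors, which set the bulk of genes level between libraries and were 1.35 to 1.73 for GV and 0.794 to 0.922 for MIX libraries. On library sizes alone, the median of all genes was -1.06, and 2 of the 9 genes were called higher (NPM1 and ASF1B) and 6 lower (HIRA, ASF1A, CHAF1A, CHAF1B, NASP and SLBP). Over all genes, 1571 were then called higher and 7948 lower, in place of 3972 and 4889. NASP turned from 0.43 to -0.46 and SLBP from 0.04 to -0.85. NPM1 at 1.43 and ASF1B at 1.27 were then no longer DEGs, and HIRA at -2.01 was the 1 DEG of the 9 genes. Relative to the median of all genes, each gene kept its place, with NPM1 at 2.49 above it under both scalings and ASF1B at 2.32 above it under both. The values are relative, to a library's total or, with TMM factors, to the bulk of its genes. Whether a lower value means fewer, or a higher value more, RNA molecules per oocyte cannot be told apart from a change in the rest of the RNA. The study states that oocytes stop transcription when they resume meiosis and then draw on stored mRNAs. These are libraries of poly(A) RNA, and whether a change in poly(A) tails had a part in the rises and falls was not tested.

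**Figure D1:**
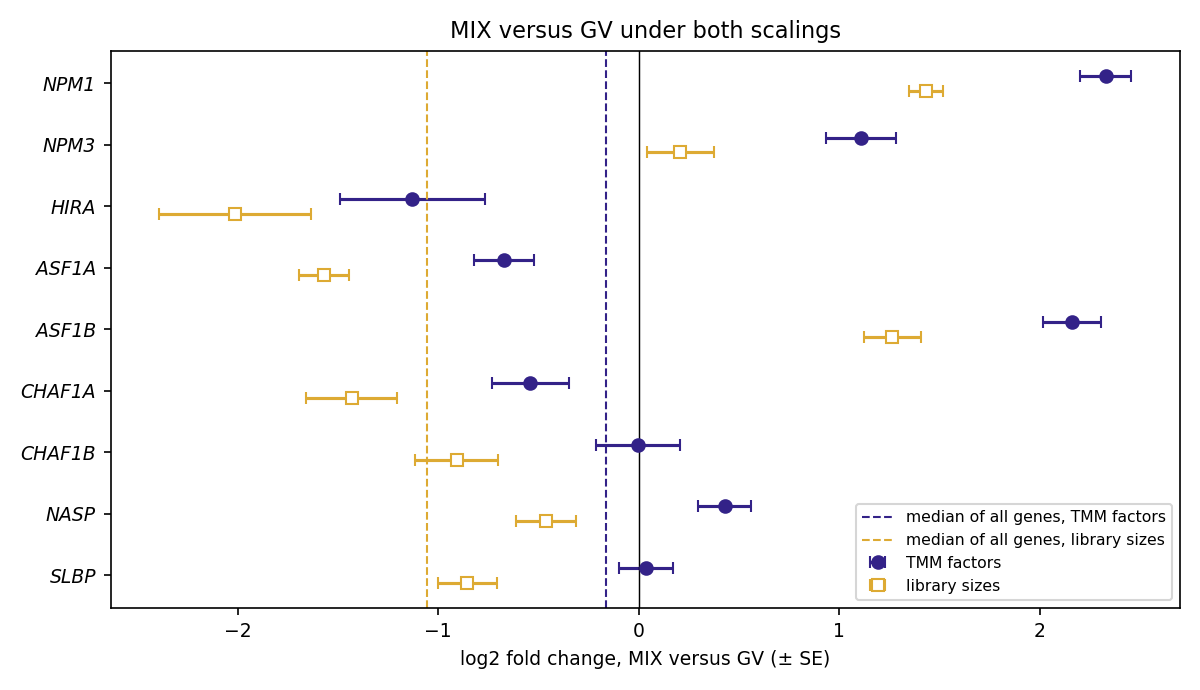
Log2 fold change of each gene in MIX versus GV oocytes (x axis, bars are ± SE) with TMM factors (circles) and on library sizes (squares), with the median of all 13230 genes as dashed lines. All 9 genes move left by about the shift of the median, from -0.16 to -1.06, and NPM1, ASF1B and NPM3 stay above 0 under both scalings, NPM3 without passing the test on library sizes.

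NPM1, or nucleophosmin, the most abundant of these genes, lies on chromosome 16 from 52767263 to 52781862 in RefSeq's Sscrofa11.1 annotation. Its TMM-scaled level was 1296, 843, 922 and 689.7 CPM in GV replicates 1, 2, 4 and 5. It was 4722, 5127, 4343, 4747 and 4513 CPM in MII replicates 1 to 5 and 4683, 4738, 4339, 4768 and 3982 CPM in ‘damaged’ replicates 1 to 5. The lowest matured library thus stood well above the highest GV library, and the MII and ‘damaged’ ranges overlapped. The log2 fold change of MIX versus GV was 2.33 ± 0.13 (SE, FDR = 3.77e-12), a 5.03-fold higher share, and the FDR stayed under the threshold in 24 of 24 alternative settings.

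NPM3, a smaller relative of NPM1 on chromosome 14 (112819390 to 112822244), was far less abundant. GV libraries held 18.6, 11.9, 13.2 and 12.4 CPM, MII libraries 29.9, 27.5, 18.0, 31.3 and 24.2 CPM and ‘damaged’ libraries 27.2, 40.2, 27.9, 40.6 and 38.1 CPM. Every ‘damaged’ library was above every GV library, whereas MII replicate 3 lay just under GV replicate 1. NPM3 rose by a log2 fold change of 1.11 ± 0.18 (SE, FDR = 1.07e-05) in MIX, but on library sizes the value was 0.21 and did not pass (FDR = 0.257). NPM2, the oocyte's own nucleoplasmin, is the member for which no value can be given.

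ASF1B and ASF1A are paralogs that take H3 and H4 as a dimer to the depositing complexes, and their mRNAs moved in opposite directions. ASF1B (chromosome 2, 65063186 to 65072681) was at 97.9, 63.7, 91.3 and 79.6 CPM in GV libraries. MII libraries held 276, 403, 402, 356 and 422 CPM and ‘damaged’ libraries 305, 330.1, 449.8, 407 and 352 CPM of ASF1B. All matured libraries were above all GV libraries, with a log2 fold change of 2.16 ± 0.14 (SE, FDR = 5.85e-11) that passed in 24 of 24 alternative settings. ASF1A (chromosome 1, 43200339 to 43215019) was at 371, 263, 286 and 181 CPM in GV libraries, at 149, 148, 194, 169 and 174 CPM in MII libraries and at 168, 166, 209.7, 152 and 148 CPM in ‘damaged’ libraries. GV replicate 5 lay inside the range of the matured libraries, so the groups overlapped, and the log2 fold change was -0.67 ± 0.15 (SE, FDR = 0.00043). The call of ASF1A was lost when GV replicate 3 was added (FDR = 0.0235) and when only the 8 libraries with the same name in both deposits were used (FDR = 0.139).

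The ratio of the paralogs within a library does not depend on scaling between libraries. In TPM, a share of a library's transcripts that is corrected for transcript length, the ratio of ASF1B to ASF1A was 0.347 to 0.63 in GV, 2.65 to 3.89 in MII and 2.59 to 3.82 in ‘damaged’ libraries. ASF1A was thus the more abundant paralog in every GV library used and ASF1B in every matured library, as the plot of ratios within libraries shows. GV replicate 3 had a ratio of 0.571, inside the range of the other GV libraries. These ratios were chosen with the values known and are given without a test.

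**Figure D2:**
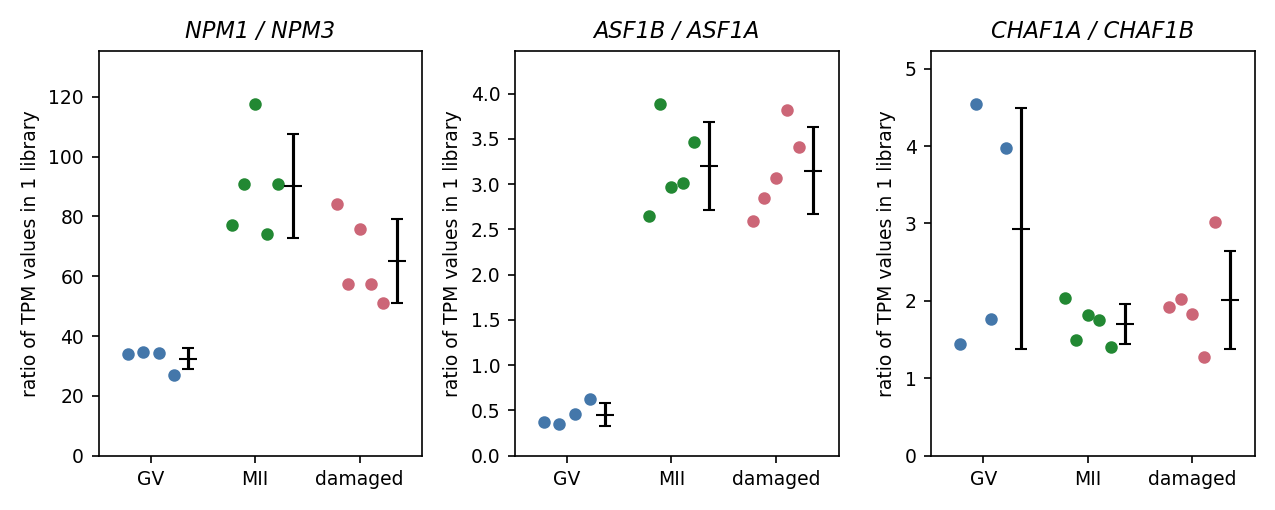
Ratio of the TPM values of 2 genes within each library (y axis, from 0), by group (x axis), with each point a library and the bar the mean ± SD. NPM1 to NPM3 and ASF1B to ASF1A do not overlap between the 4 GV and the 10 matured libraries, and CHAF1A to CHAF1B does overlap, from 1.44 to 4.55 in GV and from 1.27 to 3.02 in matured libraries.

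HIRA, the depositor of H3.3, was close to the limit of detection, with 12 to 33 counts in GV libraries and 2 to 13 counts in matured libraries. Its level was 0.93, 1.16, 0.59 and 1.37 CPM in GV libraries, 0.19, 0.53, 0.23, 0.59 and 0.62 CPM in MII libraries and 0.31, 0.15, 0.79, 0.39 and 0.81 CPM in ‘damaged’ libraries. GV replicate 4 lay within the matured range. The log2 fold change of -1.13 ± 0.36 (SE, FDR = 0.00859) passed in 8 of 23 alternative settings and was lost with edgeR (FDR = 0.0118) and DESeq2 (FDR = 0.0208), so at this depth the fall rests on few reads. The partners in its complex did not pass the test with TMM factors. UBN1 had a log2 fold change of -0.04 ± 0.20 (SE, FDR = 0.846), UBN2 of -0.21 ± 0.14 (FDR = 0.18) and CABIN1 of -0.05 ± 0.21 (FDR = 0.83), in the same limma-voom fit. On library sizes all were called lower in limma-voom, UBN1 at -0.93 (FDR = 0.00122), UBN2 at -1.10 (FDR = 5.19e-06) and CABIN1 at -0.93 (FDR = 0.00137). UBN1 lay at 19.4 to 47.6 CPM in GV and 23.7 to 40.6 CPM in MIX libraries, well above HIRA itself.

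The subunits of chromatin assembly factor 1 did not pass the test. CHAF1A (chromosome 2, 74380706 to 74411875) was at 51.1, 82.9, 68.4 and 104 CPM in GV libraries, at 48.9, 52.0, 52.8, 43.3 and 48.6 CPM in MII libraries and at 38.2, 44.6, 48.2, 55.2 and 94.3 CPM in ‘damaged’ libraries. ‘Damaged’ replicate 5 stood above the other 9 matured libraries. The log2 fold change was -0.54 ± 0.19 (SE, FDR = 0.0157), and without that library it was -0.61 with an FDR of 0.00196. Without GV replicate 1 it was -0.70 with an FDR of 0.00251, and on library sizes -1.43 with an FDR of 1.16e-05. CHAF1B (chromosome 13, 200048096 to 200074902) was at 17.6, 9.05, 19.2 and 13.0 CPM in GV libraries and between 9.86 and 21.6 CPM in matured libraries. Its log2 fold change was -0.00 ± 0.21 (SE, FDR = 0.986), against -0.91 (FDR = 0.000582) on library sizes. RBBP7, a histone-binding relative of the small subunit that also works with the histone acetyltransferase HAT1, rose instead from 343 to 489 CPM in GV to 1762 to 2376 CPM in MIX libraries (log2 value 2.38 ± 0.11, SE, FDR = 3.79e-13).

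NASP and SLBP act before deposition. NASP (chromosome 6, 165773964 to 165804978) was at 181, 262, 209.2 and 282 CPM in GV libraries. It was at 330.4, 325, 249, 333 and 273 CPM in MII libraries and at 295, 334, 271, 329 and 380.0 CPM in ‘damaged’ libraries. GV replicates 2 and 5 lay inside the matured range. The rise of 0.43 ± 0.13 in log2 fold change (SE, FDR = 0.00611) passed in the same direction in 13 of 24 alternative settings and turned into a fall of NASP on library sizes, -0.46 with an FDR of 0.00894. SLBP (chromosome 8, 802940 to 818161) lay at 109 to 171 CPM in GV, 119 to 170.1 CPM in MII and 125 to 173 CPM in ‘damaged’ libraries. These ranges were nearly the same, with a log2 fold change of 0.04 ± 0.13 (SE, FDR = 0.813), while on library sizes it was -0.85 (FDR = 3.24e-05).

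**Figure D3:**
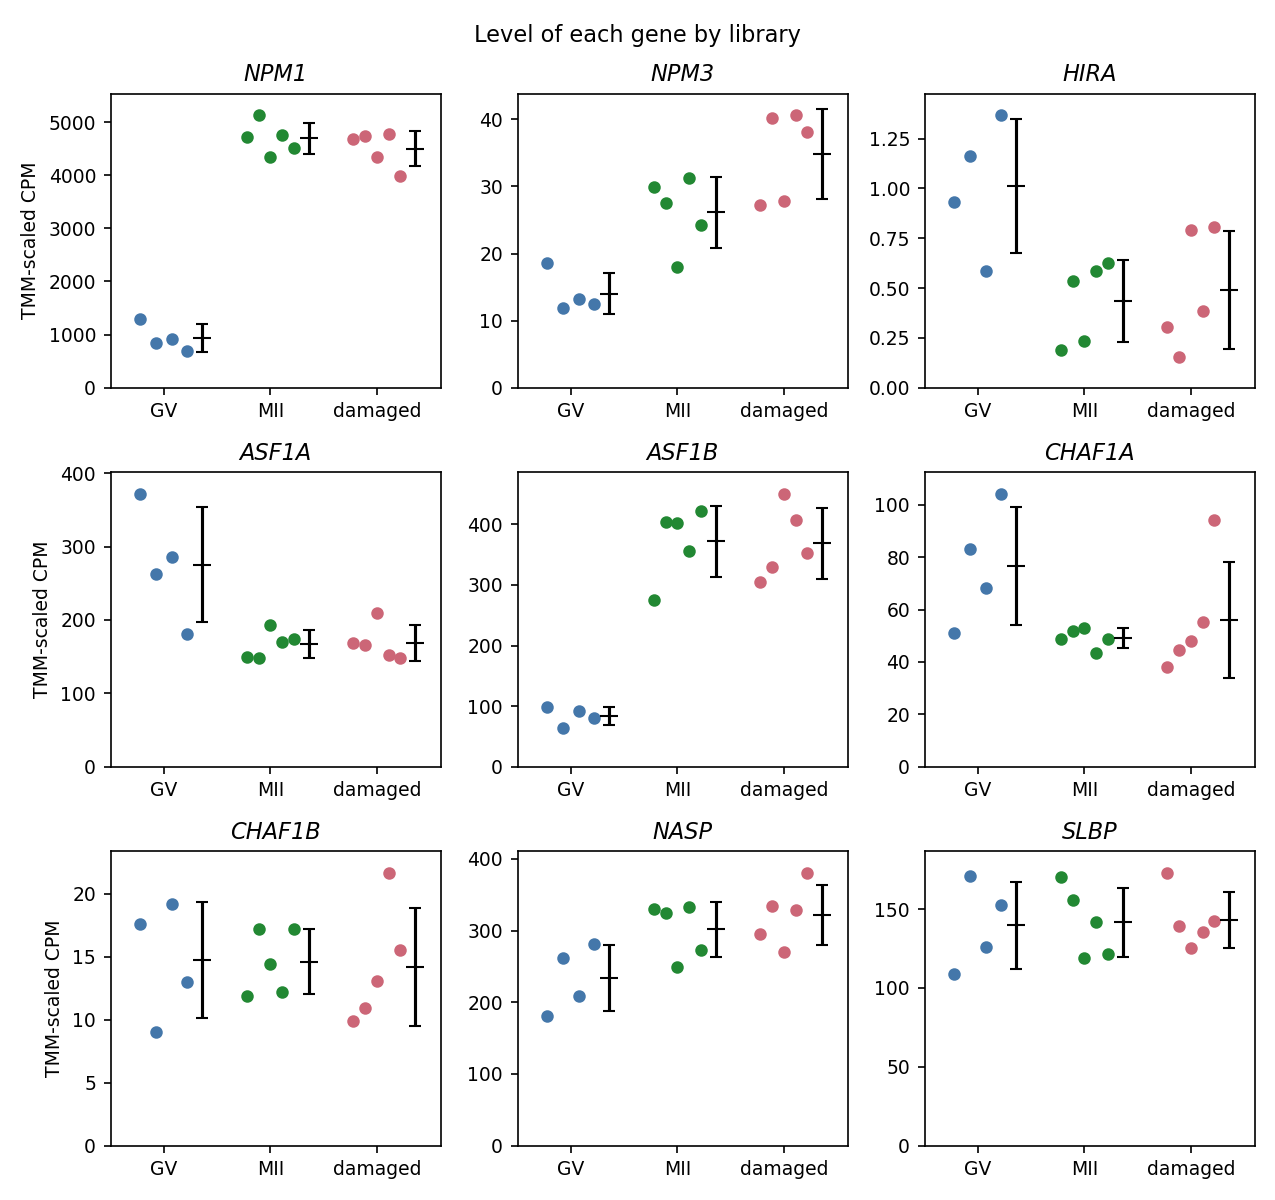
TMM-scaled level in CPM (y axis, linear from 0) of the 9 genes in each library, by group (x axis), with each point a library (4 GV, 5 MII, 5 ‘damaged’) and the bar beside it the mean ± SD. NPM1 and ASF1B are higher in all matured libraries than in all GV libraries, and the MII and ‘damaged’ points overlap in all 9 panels.

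Ordered by mean TPM, which allows levels to be set between genes, NPM1 led in each group, with 1445 ± 158 (SD, n = 4) in GV, 3575 ± 112 (SD, n = 5) in MII and 3549 ± 143 (SD, n = 5) in ‘damaged’ oocytes. In GV oocytes ASF1A at 276 ± 38.1 (SD, n = 4), SLBP at 226 ± 72.0 (SD, n = 4) and NASP at 216 ± 73.8 (SD, n = 4) followed with overlapping ranges, ahead of ASF1B at 122 ± 17.9 (SD, n = 4). In matured oocytes ASF1B came next, at 266 ± 49.6 (SD, n = 5) in MII and 274 ± 52.3 (SD, n = 5) in ‘damaged’ libraries, above NASP in all 10 libraries and without overlap of the ranges. NASP, SLBP and ASF1A then followed in the same order in both groups, with overlap between each neighbour. NPM3, CHAF1A, CHAF1B and HIRA came last in matured oocytes, and HIRA was the lowest of the 9 genes in every library used. TPM are shares of a library as well, so these values order genes within a group and make no comparison between stages.

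Compared with GV, MII oocytes alone had 4 of the 9 genes called (NPM1, NPM3, ASF1A and ASF1B), where 62.4% of all genes were called. ‘Damaged’ oocytes alone had 5 called, the same genes and NASP, where 61.4% of all genes were called. These comparisons share the GV libraries. NPM1 had a log2 fold change of 2.36 ± 0.14 (SE) in MII and 2.30 ± 0.14 in ‘damaged’ oocytes, ASF1B 2.17 ± 0.16 and 2.15 ± 0.16, and ASF1A -0.68 ± 0.17 and -0.67 ± 0.17. NPM3 had 0.90 ± 0.20 in MII and 1.31 ± 0.20 in ‘damaged’ oocytes. NASP had 0.38 ± 0.15 (FDR = 0.0271) in MII and 0.47 ± 0.15 (FDR = 0.00784) in ‘damaged’ oocytes with limma-voom, so it passed in the ‘damaged’ oocytes, but the difference between the groups was not called, as given next.

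Whether matured oocytes with and without a polar body differed was tested directly. None of the 9 genes was called between MII and ‘damaged’ oocytes at an FDR under 0.01 with limma-voom, edgeR or DESeq2, and neither was any of the 13230 genes tested with limma-voom (0% called, smallest FDR = 1.00, 194 genes at an unadjusted p under 0.05). Over all genes the smallest FDR was 0.382 with DESeq2. In limma-voom with the replicate number as a block it was 0.0236, with no gene called and 353 at an unadjusted p under 0.05. NPM3 was the 1 gene of the 9 at an unadjusted p under 0.05 with each of the 3 tools. Its log2 difference of MII minus ‘damaged’ was -0.41 (95% interval -0.79 to -0.03, unadjusted p = 0.034 in the limma-voom fit, FDR = 1.00). The intervals of the other genes spanned 0, at -0.22 to 0.34 for NPM1, -0.30 to 0.32 for ASF1B, -0.35 to 0.33 for ASF1A, -0.38 to 0.20 for NASP and -0.32 to 0.28 for SLBP. They were wider for CHAF1A (-0.58 to 0.32), CHAF1B (-0.42 to 0.56) and HIRA (-1.08 to 0.99). A difference of HIRA within that interval was not detectable at this depth.

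With the 8 libraries whose names agreed in both deposits (2 GV, 3 MII and 3 ‘damaged’), 3 of the 9 genes were called in MIX versus GV. These were NPM1 at a log2 fold change of 2.51, ASF1B at 2.25 and NPM3 at 1.22. NASP was at 0.35 (FDR = 0.118), ASF1A at -0.35 and HIRA at -0.68 (FDR = 0.235) in that limma-voom fit, and 0 genes were called between MII and ‘damaged’ oocytes.

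Genes with more than 1 annotated transcript were also compared by isoform usage, the share of a gene's TPM that each transcript takes. A transcript was called at an FDR under 0.01 with a difference in share over 10 percentage points between MIX and GV. The FDR is that of limma's diffSplice, which sets the change of a transcript's estimated counts against that of the gene's other transcripts. It does not test the difference in share, which enters only through the cut of 10 points. By this rule 8 transcripts of the 9 genes were called, 4 of NASP, 2 of NPM1 and 2 of ASF1B, where 28.8% of all 14416 transcripts tested were called. Transcripts with counts numbered 10 for NASP, 5 for NPM1 and 2 each for ASF1B, SLBP and HIRA. All transcripts of NPM1, ASF1B and SLBP were tested, and those of HIRA were not. Of NASP, ENSSSCT00000077698.2, ENSSSCT00000093684.1, ENSSSCT00000069966.2 and ENSSSCT00000079319.2 were not tested and the others were. Transcripts of 1 gene depend on each other, and the 2 of ASF1B mirror each other. Kallisto divides reads that several transcripts share by estimate, so a transcript's share rests on the reads that tell transcripts apart. ASF1A, CHAF1A, CHAF1B and NPM3 each had 1 transcript.

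NASP had the largest exchange. Transcript ENSSSCT00000022777.4 (2760 bases) had an estimated count of 0 in the 4 GV libraries used. For whole counts a 0 allows a share of up to 0.0435 to 0.0836% of the gene's counts per library (3 counts, counting error only), and an estimate that divides shared reads is less certain than that. In MII libraries it took 40.1, 47.6, 38.1, 32.3 and 41.0% of NASP and in ‘damaged’ libraries 31.1, 37.1, 36.4, 45.4 and 49.1%, an FDR of 1.19e-07 with limma's diffSplice. Transcript ENSSSCT00000084116.1 (2752 bases) took 0.348 to 0.742% in GV and 6.59 to 21.8% in matured libraries (FDR = 1.76e-14). In the other direction, ENSSSCT00000078444.2 (3047 bases) took 16.2, 23.5, 27.0 and 37.1% in GV libraries and at most 1.11% in any matured library (FDR = 2.41e-12). ENSSSCT00000054105.3 (2493 bases) fell from 50.3 ± 7.38% (SD, n = 4) to 26.2 ± 5.35% (SD, n = 10, FDR = 0.00044), a call that was lost without GV replicate 2 (FDR = 0.0101) or GV replicate 4 (FDR = 0.0247). ENSSSCT00000039080.3 (3163 bases) kept 22.4 ± 6.33% and 18.4 ± 2.53% with no call (FDR = 0.859). The mean length of NASP transcripts, weighted by TPM, was nearly the same, 2761 to 2853 bases in GV and 2741 to 2781 bases in matured libraries. So the gene-level value of NASP moved by a log2 fold change of 0.43 while the transcripts that carried it were largely exchanged, as the plot of transcript shares shows.

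**Figure D4:**
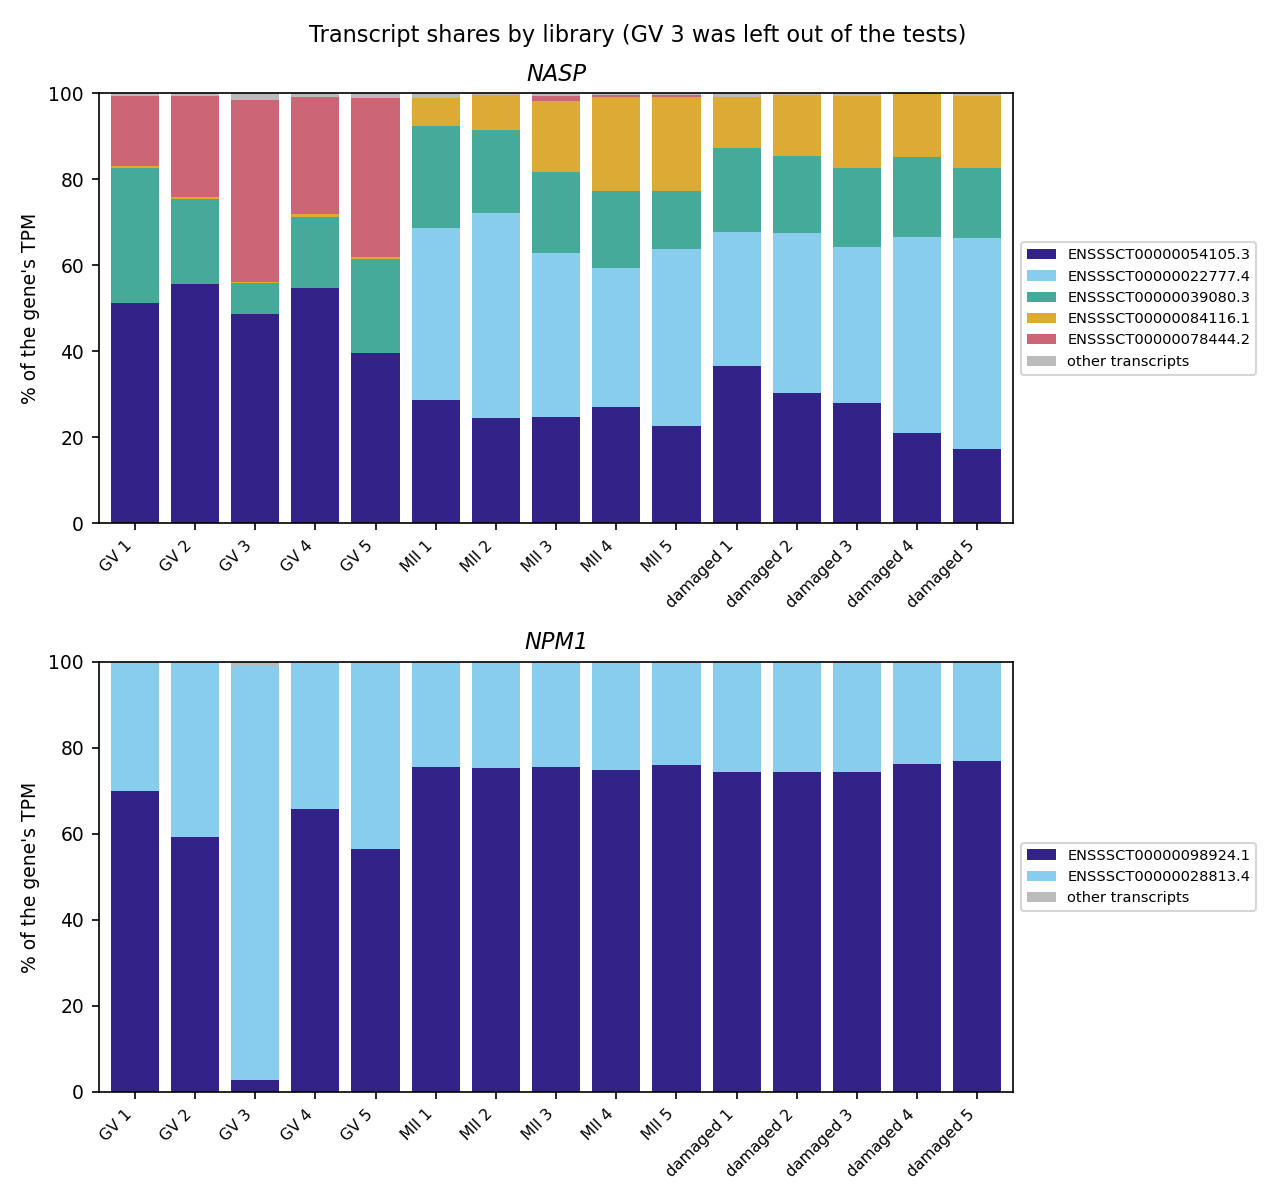
Share of each gene's TPM (y axis, percent) taken by each transcript in each of the 15 libraries (x axis), for NASP (top) and NPM1 (bottom). The red part of NASP is 16.2 to 37.1% in GV replicates 1, 2, 4 and 5 and at most 1.11% in matured libraries, where the light blue part is 31.1 to 49.1%, and in GV replicate 3 the dark part of NPM1 is 2.77%.

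NPM1 was read mainly as 2 transcripts that differ in length. The short one, ENSSSCT00000098924.1 (864 bases), took 56.6 to 70.0% in GV and 74.3 to 76.9% in matured libraries (FDR = 1.61e-05). The long one, ENSSSCT00000028813.4 (3282 bases), took 29.8 to 43.0% and 22.8 to 25.4% (FDR = 0.00121). Its call was lost without GV replicate 2 (FDR = 0.0236) and with the 8 libraries of matching name (FDR = 0.019). As shares of a library, without TMM factors, both transcripts had a higher TPM in all matured than in all GV libraries used. The short one had 735 to 1168 in GV and 2522 to 2862 in matured libraries, and the long one 477 to 564 and 821 to 910. GV replicate 3 stood far apart here, with 2.77% of the short and 96.3% of the long transcript, and was not part of the test.

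ASF1B had 2 transcripts. As shares of a library, without TMM factors, both had a higher TPM in all matured than in all GV libraries used. The longer one, ENSSSCT00000045769.2 (2117 bases), took 37.4, 23.5, 37.3 and 25.0% of ASF1B in GV libraries and 40.6 to 48.3% in matured libraries, a difference of 14.5 points (FDR = 0.0056). Its share was above every GV library in every matured library, but the call was lost without GV replicate 2 (FDR = 0.0244), GV replicate 5 (FDR = 0.0418) or MII replicate 4 (FDR = 0.0103) and with the 8 libraries of matching name (FDR = 0.0139). SLBP had an FDR of 2.93e-06 for its longer transcript, ENSSSCT00000009493.5 (1713 bases), but the difference of 8.33 points was under the threshold. That transcript took 1.27 to 2.99% of SLBP in GV, 2.99 to 12.3% in MII and 9.45 to 18.2% in ‘damaged’ libraries. Isoform usage was not tested here between MII and ‘damaged’ oocytes. The study compared it between these groups and reported RAB4B and DTNBP1, not SLBP. The estimated counts of ENSSSCT00000009493.5 moved in steps of 28.0, with 1 to 4 steps in GV, 2 to 9 in MII and 8 to 14 in ‘damaged’ libraries. They thus rest on a small number of reads that tell the transcripts apart.

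The genes around these chaperones were read from the same fit, in which 30.0% of all genes were called higher and 37.0% lower. Of 16 further partners in handling H3 and H4, 13 were tested, of which 4 rose, 2 fell and 7 did not pass, with a median log2 fold change of 0.07. RBBP7 has been given above. ATRX, which with DAXX places H3.3 in heterochromatin, rose from 47.7 to 66.5 CPM in GV to 158 to 260 CPM in MIX libraries (log2 fold change 1.85 ± 0.14, SE, FDR = 2.87e-10), whereas DAXX had 0.07 ± 0.25 (FDR = 0.817). DNAJC9, a co-chaperone of H3 and H4, rose by 0.65 ± 0.11 (FDR = 3.30e-05), but had -0.25 with no call on library sizes. HAT1, which acetylates newly made H4, fell from 303 to 679 CPM to 244 to 333 CPM, which on the log2 scale was -0.74 ± 0.15 (FDR = 0.000226). TONSL, a reader of new H4, had the lowest value, -2.41 ± 0.40 (FDR = 1.91e-05), at 0.821 to 2.37 CPM in GV and at most 0.601 CPM in MIX libraries.

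Chaperones of H2A and H2B and nucleolar proteins, the company of NPM1, had 8 genes that rose and 1 that fell with TMM factors, of 12 listed and 9 that had an identifier and were tested. Their median log2 fold change was 1.05, against -0.16 over all genes. On library sizes 2 were higher and 1 lower, with a median of 0.16 against -1.06 over all genes, so 6 of the 8 were no longer called, and SSRP1, NOP56 and UBTF among them then lay below 0. ANP32B rose from 147 to 244 CPM to 549 to 938 CPM (log2 fold change 1.92 ± 0.14, SE, FDR = 2.65e-10), and SUPT16H, a subunit of the FACT complex, rose from 69.1 to 92.0 CPM to 218 to 252 CPM (1.57 ± 0.10, FDR = 5.40e-11), and both were also called higher on library sizes. FBL, the methyltransferase of nucleolar box C/D particles, went the other way, from 7.81 to 14 CPM in GV to 0.642 to 2.51 CPM in MIX libraries (-3.20 ± 0.27, FDR = 2.06e-09).

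The listed factors around histone mRNA, the company of SLBP, went in both directions. All 14 were tested, of which 6 rose, 4 fell and 4 did not pass, with a median log2 fold change of 0.40 (-0.50 on library sizes, with 3 higher and 7 lower). CASP8AP2, a protein of the histone locus body also known as FLASH, rose from 276 to 355 CPM to 1378 to 1884 CPM (2.46 ± 0.11, SE, FDR = 2.04e-13). LSM10, a ring protein of the U7 particle that cuts histone pre-mRNA, fell from 74.9 to 106 CPM to 13.7 to 27.8 CPM (-2.19 ± 0.15, FDR = 1.16e-10). YBX2 fell from 47.5 to 124 CPM to 0.976 to 2.95 CPM, the largest change among the listed genes (-5.31 ± 0.27, FDR = 1.47e-12). It is in the list as a germ cell protein that binds stored mRNA, not as a factor that makes or processes histone mRNA.

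Of 10 histone genes that are expressed outside replication and whose mRNAs carry poly(A) tails, 7 were tested, of which 2 rose, 2 fell and 3 did not pass, with a median log2 fold change of 0.11. H1-8, the linker histone of the oocyte, rose from 995 to 1353 CPM to 2412 to 3549 CPM (1.31 ± 0.12, SE, FDR = 4.85e-09). H2AZ1, which encodes the variant H2A.Z, rose by 1.84 ± 0.16 (FDR = 3.41e-09), and both were also called higher on library sizes. H1-10, another linker histone, fell by 2.39 on the log2 scale (FDR = 1.88e-07), at 2.24 to 4.50 CPM in GV and 0.30 to 1.20 CPM in MIX libraries. H3-3A, which encodes the H3.3 that HIRA deposits, had 0.19 ± 0.20 (FDR = 0.405), but was called lower on library sizes, at -0.70 (FDR = 0.00348).

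**Figure D5:**
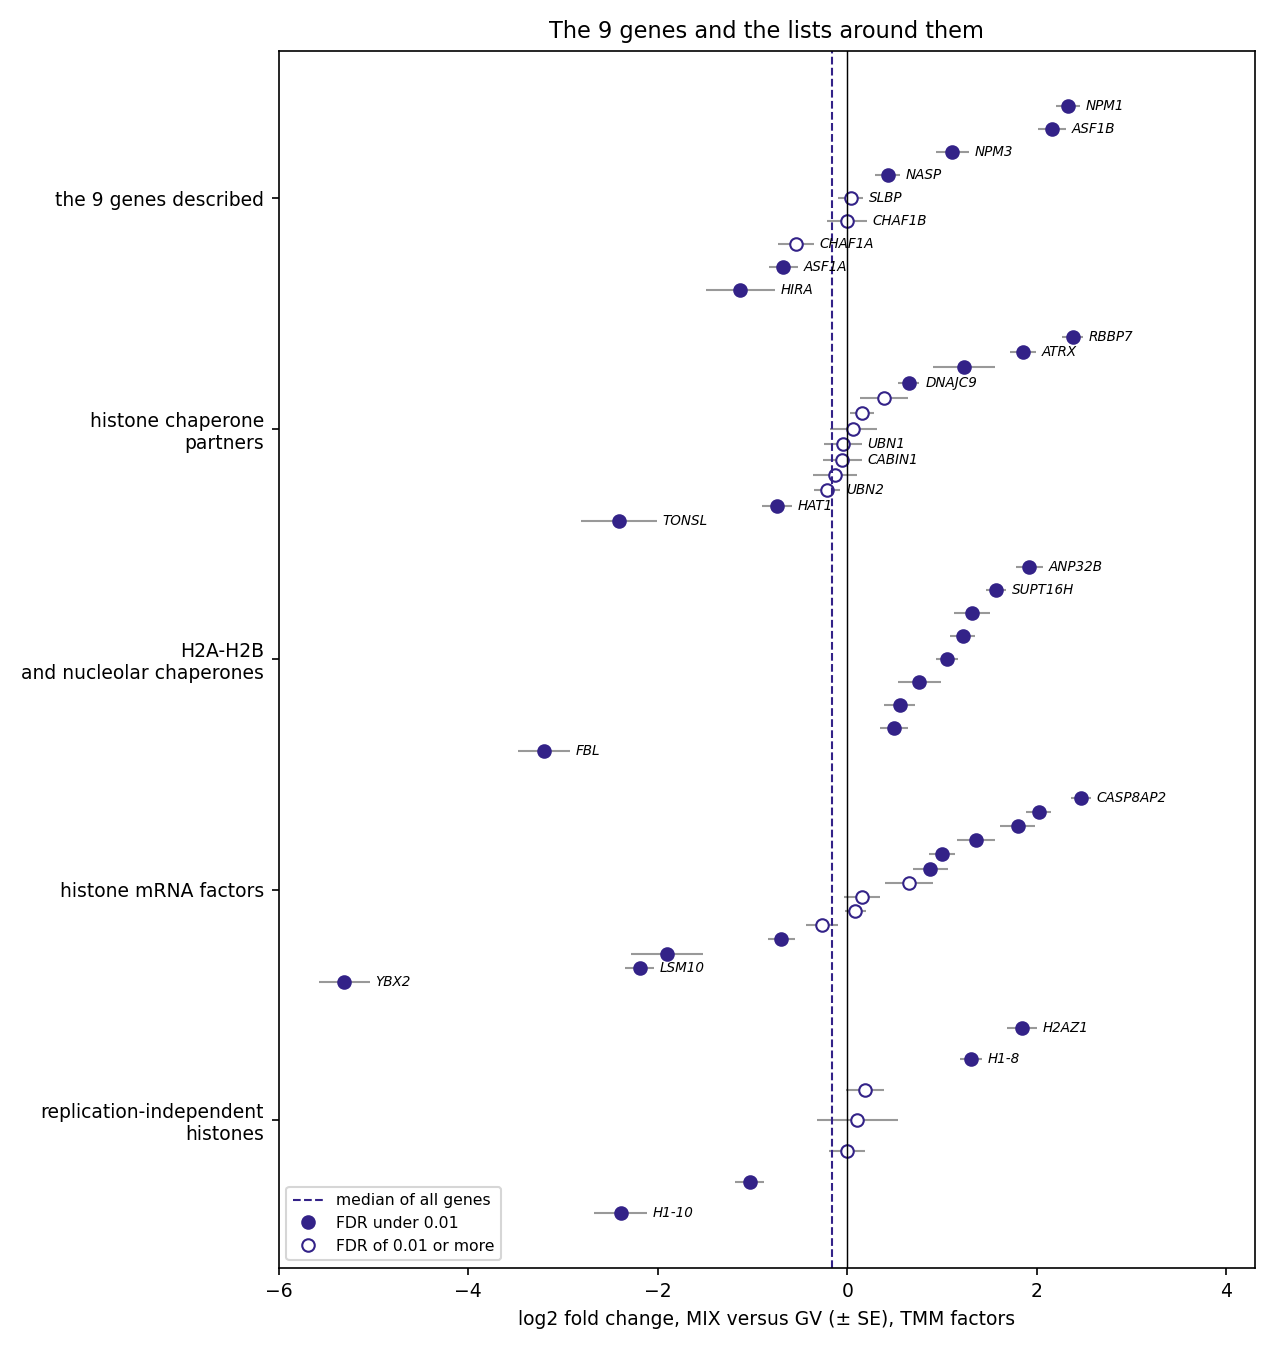
Log2 fold change of MIX versus GV with TMM factors (x axis, bars are ± SE) for the 9 genes and the 4 lists around them (y axis), with filled points at an FDR under 0.01 and the median of all genes, -0.16, as a dashed line. In the list of H2A and H2B chaperones 8 of 9 points lie to the right of 0 and FBL lies at -3.20, and YBX2 is the leftmost point at -5.31.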

How the data were processed

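Pig libraries of GV, MII and ‘damaged’ oocytes were used and grouped by their labels. The authors quantified transcripts with Kallisto (0.43 in the submitters' processing notes) on the Ensembl cDNA of Sscrofa11.1. The deposited estimated counts are not normalized, and the deposited TPM values scale each library to the same total. The authors made the estimated counts per gene with tximport (lengthScaledTPM). Gene table columns were assigned by total (largest difference 3.73e-09 counts, next nearest at least 16495), and 0 columns were left unused. Transcripts were assigned to 17849 genes by matching sums of transcript TPM to gene counts, which holds 99.1 to 99.5% of each library's counts.

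R 4.3.3 was used for the tests. Low counts were removed by filterByExpr (minimum count 10) and TMM factors computed, both in edgeR 4.0.16, and 1 fit of the 3 groups with 11 residual degrees of freedom was made by limma 3.58.1 through voom and moderated variances. TMM factors were chosen because, in an earlier look at these data, the means that the study tabulated matched TMM-scaled libraries. The study's methods do not name such a step, and library sizes were the alternative. FDR is by Benjamini-Hochberg over all genes tested. Isoform usage used voom and diffSplice of limma on transcripts, in place of DEXSeq. Alternatives were edgeR's quasi-likelihood test, DESeq2 1.42.0 (both on rounded counts), other filters, all 5 GV libraries, a replicate block, summed counts, a fit of 2 groups and leaving out each library, and, added after seeing the data, the 8 libraries with matching names and leaving out each library for isoforms. Scripts were tested on simulated data. Python 3.11.15 with pandas 2.3.3 and matplotlib 3.10.9 made summaries and figures.

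The genes and lists were chosen with earlier results of these data known. All 10 genes are named, then the partners UBN1, UBN2, CABIN1, RBBP4, RBBP7 and HAT1, and up to 3 further genes per list with the largest absolute log2 fold change among those called without overlap of libraries. DAXX, H3-3A, SSRP1, NOP56 and UBTF were named after their values were seen. RBBP4, SET, ANP32A, ANP32E, H3-3B, DPPA3, CYP19A1 and FOXL2 had no identifier in the gene name table, and IPO4, CDAN1, MACROH2A2 and 10 somatic markers did not pass the filter. No genome of the files' build was used here, so no sequence is given, and HIRA had no position by symbol.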

Additional observations from a re-analysis of the deposited data

How the results depend on the processing

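In MIX versus GV, 4 of the 9 genes were higher and 2 lower, 6 in all, with 2 DEGs. On library sizes 2 were higher and 6 lower, NPM1 at 1.43 and ASF1B at 1.27 were no longer DEGs, HIRA at -2.01 was the 1 DEG, and NASP turned to -0.46 and SLBP to -0.85. The lower count was 1 with edgeR, DESeq2, no filter on low counts and summed counts, and the filter of 10 CPM left 1 DEG (NPM1, with ASF1B at 1.84). With the 8 libraries of matching name 3 genes were called, 0 of them lower. Leaving out single libraries gave 1 to 3 lower and 4 to 7 called in all.

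In MII versus GV, 8 genes were called on library sizes, in place of 4, and the values turned to -0.015 for NPM3, -0.89 for CHAF1B, -0.53 for NASP and -0.89 for SLBP. In ‘damaged’ versus GV, 3 genes were called with all 5 GV libraries and 3 with the 8 libraries, in place of 5, and NASP turned to -0.40 and SLBP to -0.82 on library sizes. No gene of the 9 was called between MII and ‘damaged’ oocytes under any alternative run.

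On library sizes the partners of H3 and H4 had 2 higher and 7 lower, the H2A and H2B list 2 higher, the histone mRNA factors 3 higher and 7 lower, and the replication-independent histones 4 lower. With all 5 GV libraries 1 partner was lower. The called transcripts were 5 with the 8 libraries and 4 to 8 when single libraries were left out (4 without GV replicate 2), in place of 8. Library sizes shift all genes by construction, and the 8 libraries are fewer samples. For the other alternatives the cause was not tested.

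With the replicate number as a block, 6 genes were called in MIX versus GV, 4 higher and 2 lower (CHAF1A at -0.54, FDR = 0.00572, was gained and HIRA at -1.10, FDR = 0.0273, was lost in limma-voom), 6 in MII versus GV, 5 in ‘damaged’ versus GV, 0 in MII versus ‘damaged’, and 6 transcripts, without the 2 of ASF1B (FDR = 0.0111). The labels do not say that a number marks a collection, so the numbers were not taken to pair the libraries. The correlations of 13 same-numbered pairs were -0.10 to 0.32 (median 0.07), against -0.28 to 0.27 for pairs with other numbers. That 9 of 14 libraries correlated best with their own number is a hint of pairing from the data. Depth limits HIRA most, at 2 to 33 counts per library.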

Other observations

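GV replicate 3, the shallowest library, entered no main test. Scaled with all 15 libraries, it held 472 CPM of NPM1, 136 CPM of ASF1A, 54.4 CPM of ASF1B and 3.34 CPM of CHAF1B, each below the other 4 GV libraries, and 140.0 CPM of CHAF1A and 326 CPM of NASP, each above them. Its ratio of CHAF1A to CHAF1B in TPM was 20.8, and that of NPM1 to NPM3 was 12.1, against 27.1 to 34.5 in the other GV libraries. Its CHAF1B value rested on 35 counts, where those libraries had 176 to 402. In ‘damaged’ replicate 3, 95.3% of HIRA was assigned to a second annotated transcript, ENSSSCT00000011079.5, that was at 0 in every other library.

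Over 27 sets of the libraries used (9 genes in each of 3 groups), no library was marked by Dixon's criterion, of which chance would mark about 1 in 20. GV replicate 3 was not in these sets. With 4 or 5 libraries in a set the criterion can miss a library that lies apart, so it does not show that the libraries of a group were alike.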
